A study of Mus musculus with 5 samples.

Results

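Dense clusters of BRG1 peaks in oxLDL-treated macrophages were taken as 100 kb windows, laid end to end from the start of each mm10 chromosome, that held 8 or more peak summits of the oxLDL WT library. Windows before position 3.1 Mb of chromosome 9 were left out, where 1 window with 28 oxLDL WT summits would have passed. The rule found 63 windows among the 4767 that held at least 1 oxLDL WT summit. All peaks with a summit in these windows were members, and they numbered 882 of the 14951 peaks in the 4 lists. They comprised 256 of 4668 oxLDL KO peaks (5.48%), 612 of 9907 oxLDL WT peaks (6.18%), 5 of 139 KO peaks (3.60%) and 9 of 237 WT peaks (3.80%). The oxLDL WT summit counts chose the windows, so those counts are given as a description and carry no test.

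BRG1 was profiled by ChIP-seq in primary bone marrow-derived macrophages (BMDMs) in 4 groups, namely Baf60a KO cells given oxLDL, WT cells given oxLDL, untreated Baf60a KO cells and untreated WT cells. Each group was 1 library, so there is no replicate check and no p-value, and differences between lists cannot be set against a spread between replicates. The sources used here do not give the allele or cell type of the knockout, how much oxLDL was added or for how long, or how many mice of which age and sex were used. The input library was not analysed here. The interval printed with a share is the Wilson 95% interval, which covers counting error only, and read totals are unknown from peak lists.

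BRG1 (Smarca4) is a catalytic subunit of the SWI/SNF remodelling complexes, which use ATP to slide or evict nucleosomes at promoters and enhancers. BAF60a, encoded by Smarcd1, is a non-catalytic subunit that links these complexes to transcription factors. Macrophages carry dense groups of enhancers near genes of their identity and of their inflammatory, phagocytic and lysosomal programmes, and oxidised LDL is taken up by such cells in the artery wall through scavenger receptors.

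Of the promoters in the windows, 33 promoters of 28 genes carried an oxLDL WT peak, and 8 of these, each of a different gene, also carried an oxLDL KO peak. These 8 belonged to Sh3bp2, Hcst, Nfkbid, Ltc4s, Prkcd, Arhgap22, Gpr18 and Atp6v1g2. The sequences below are 300 bases each, from RefSeq on GRCm38.p6 (the assembly of mm10), 250 bases before and 50 after an annotated transcription start, read 5′ to 3′ on the strand of the gene. The first 4 were chosen as promoters with a peak in both oxLDL lists, and the last 2 as promoters with a peak in the oxLDL WT list alone. Capitals mark AGGAAGT or its reverse complement ACTTCCT, the letters bound by ETS factors such as PU.1, the lineage factor of macrophages. Arhgap22 encodes a GTPase-activating protein for Rac, and its promoter is at chr14:33216573-33216872 on the plus strand. Hcst encodes DAP10, a signalling adaptor of immune receptors, at chr7:30419805-30420104 on the minus strand. Nfkbid encodes a nuclear IκB protein, at chr7:30423025-30423324 on the plus strand. Its promoters with starts at 30421731 and 30422406, not printed here, carried an oxLDL WT peak and no oxLDL KO peak. Gpr18 encodes a G protein-coupled receptor, at chr14:121915839-121916138 on the minus strand. Cd300lf encodes an inhibitory receptor of myeloid cells, at chr11:115133943-115134242 on the minus strand. Nfe2l2 encodes NRF2, the master regulator of antioxidant genes, at chr2:75704614-75704913 on the minus strand.
Arhgap22: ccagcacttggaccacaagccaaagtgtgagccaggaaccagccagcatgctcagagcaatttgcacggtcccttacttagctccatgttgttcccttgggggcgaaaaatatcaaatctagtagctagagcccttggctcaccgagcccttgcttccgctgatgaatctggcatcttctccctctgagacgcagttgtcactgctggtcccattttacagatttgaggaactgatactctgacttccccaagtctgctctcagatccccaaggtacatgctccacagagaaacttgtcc
Hcst: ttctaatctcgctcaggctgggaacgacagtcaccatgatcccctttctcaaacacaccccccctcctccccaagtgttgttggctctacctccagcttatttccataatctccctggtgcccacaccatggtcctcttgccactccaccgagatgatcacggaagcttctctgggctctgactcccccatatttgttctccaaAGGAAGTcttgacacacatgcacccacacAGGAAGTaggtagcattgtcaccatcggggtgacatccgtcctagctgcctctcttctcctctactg
Nfkbid: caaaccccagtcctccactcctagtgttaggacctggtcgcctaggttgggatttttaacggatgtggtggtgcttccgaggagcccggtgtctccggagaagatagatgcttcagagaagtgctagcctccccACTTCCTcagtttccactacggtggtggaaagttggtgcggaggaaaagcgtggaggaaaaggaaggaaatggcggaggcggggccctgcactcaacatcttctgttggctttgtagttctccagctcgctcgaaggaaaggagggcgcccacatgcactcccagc
Gpr18: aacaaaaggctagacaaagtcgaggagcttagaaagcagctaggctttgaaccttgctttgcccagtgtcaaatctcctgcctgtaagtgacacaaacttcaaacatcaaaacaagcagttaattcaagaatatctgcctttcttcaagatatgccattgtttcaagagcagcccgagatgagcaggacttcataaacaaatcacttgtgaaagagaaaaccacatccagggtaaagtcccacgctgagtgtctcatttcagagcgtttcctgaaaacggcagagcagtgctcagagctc
Cd300lf: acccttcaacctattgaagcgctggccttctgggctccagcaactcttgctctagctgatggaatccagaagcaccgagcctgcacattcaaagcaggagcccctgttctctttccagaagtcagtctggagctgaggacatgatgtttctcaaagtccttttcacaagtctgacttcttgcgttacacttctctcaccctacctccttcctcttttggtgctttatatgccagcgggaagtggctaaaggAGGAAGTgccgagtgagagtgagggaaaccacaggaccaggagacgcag
Nfe2l2: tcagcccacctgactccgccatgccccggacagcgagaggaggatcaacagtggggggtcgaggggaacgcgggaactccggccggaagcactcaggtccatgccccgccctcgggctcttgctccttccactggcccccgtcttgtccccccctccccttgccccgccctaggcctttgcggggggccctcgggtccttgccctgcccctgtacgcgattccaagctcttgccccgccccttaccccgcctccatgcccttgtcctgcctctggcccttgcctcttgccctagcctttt

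The peak on the Arhgap22 promoter had a fold enrichment of 5.66 in oxLDL KO cells and 5.25 in oxLDL WT cells. Fold enrichment here is the authors' ratio of fragment pileup to local background at the summit, and it ranks peaks within a list. On Hcst the values were 4.53 in oxLDL KO cells and 3.96 in oxLDL WT cells, on Nfkbid 4.07 in oxLDL KO cells and 4.20 in oxLDL WT cells, and on Gpr18 4.30 in oxLDL KO cells and 3.99 in oxLDL WT cells. The peak on Cd300lf was listed at 6.29 and that on Nfe2l2 at 4.41 in oxLDL WT cells, and neither promoter carried an oxLDL KO peak. A promoter carried a peak where the peak overlapped its bases, so the summit could lie outside them. It did so for both lists on Hcst and Nfkbid, and for oxLDL WT on Gpr18 and Nfe2l2. No printed promoter carried a peak of the untreated lists. The ETS letters were found in 2 places in Hcst and in 1 place each in Nfkbid and Cd300lf, and were not found in the other printed windows. They were in 4 of the 8 promoters with both peaks, in 6 of the 33 promoters with an oxLDL WT peak (18.2%) and in 17 of all 144 promoters in the windows (11.8%), against 9.07% of 21263 promoters genome-wide. Among the 1371 promoters outside the windows with an oxLDL WT peak the share was 10.4%. The AP-1 letters TGANTCA, searched on both strands as all motifs were, were in 0 of the 33 promoters, against 6.99% of all promoters. The C/EBP letters TTGCNNAA were in 1 of the 33, against 10.2% of all promoters. TGCGCA, within the NRF1 motif, was in 1 of the 33, against 9.74% of all promoters. Motifs that overlapped were each counted, and a match describes the letters only.

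The windows lay on all 19 autosomes, with 8 on chromosome 11, 7 on chromosome 2 and 5 each on chromosomes 4, 8, 9 and 14. No window touched another. The windows on either side of a dense window held a median of 1 oxLDL WT summit. In 14 cases neither had an oxLDL WT summit, while 17 windows had a neighbour with 4 or more. The neighbours together held 90 oxLDL KO and 210 oxLDL WT summits, a ratio of 0.429. Within the dense windows, oxLDL WT peaks covered 4.84% of the 6.3 Mb and oxLDL KO peaks covered 1.63%. At the limit of the rule, the 25 windows with exactly 8 oxLDL WT summits held 82 oxLDL KO and 200 oxLDL WT summits, and 28% of the oxLDL WT peaks were overlapped in oxLDL KO cells. The 62 windows with exactly 7 held 149 oxLDL KO and 434 oxLDL WT summits, and 22.6% were overlapped.

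Fewer summits were listed in oxLDL KO cells in 61 of the 63 windows. A window held 0 to 12 oxLDL KO summits (median 4) and 8 to 16 oxLDL WT summits (median 9). The 256 oxLDL KO and 612 oxLDL WT summits gave a ratio of 0.418 in the windows, against 0.475 in the rest of the genome, where the oxLDL KO list was also the shorter. Because the windows were picked for a high oxLDL WT count, this ratio is a description. In the 63 windows picked the other way, with 5 or more oxLDL KO summits, it was 0.839. Only 4 of the 63 dense windows held 8 or more oxLDL KO summits, and genome-wide 6 windows did.

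Which oxLDL WT peaks had a counterpart in oxLDL KO cells was read from overlap of at least 1 bp. Of the 612 oxLDL WT peaks in the windows, 184 were overlapped by an oxLDL KO peak (30.1%, interval 26.6 to 33.8). The background over the whole oxLDL WT list was 27.3%, and outside the windows it was 27.1% (26.2 to 28), so the share in the windows was near the background. From the other side, 188 of the 256 oxLDL KO peaks in the windows were overlapped by an oxLDL WT peak (73.4%, 67.7 to 78.5), against 59.6% of the whole oxLDL KO list and 58.8% outside. The windows were picked for their oxLDL WT peaks, and the share also reached 70.1% (67.3 to 72.7) in the 615 windows of 4 to 7 oxLDL WT summits. In windows with 5 or more oxLDL KO summits, 49.9% of the oxLDL WT peaks were overlapped by at least 1 bp. Where at least 50% of the oxLDL WT peak had to be covered, the share in the dense windows was 18.5%, against 17.8% of the whole list.

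The single windows ranged from no overlapped oxLDL WT peak to 87.5% overlapped. A window was said to persist where at least 50% of its oxLDL WT peaks were overlapped in oxLDL KO cells, to be thinned where the share was no higher than the list-wide 27.3%, and to be intermediate between these. These names rest on overlap alone. A thinned window can lie close to the list-wide share or keep many summits, as at Prkcd (25% overlapped, 6 oxLDL KO and 8 oxLDL WT summits). By these rules 12 windows persisted, 17 were intermediate and 34 were thinned, of which 8 had no overlapped peak. The background for these counts comes from the 615 windows with 4 to 7 oxLDL WT summits. Of the dense windows 19.0% persisted, 54.0% were thinned and 12.7% had no overlapped peak, against 20.5%, 63.4% and 27.2% of those. In the 62 windows with exactly 7 oxLDL WT summits the shares were 3.23%, 53.2% and 12.9%, and in the 276 with exactly 4 they were 26.1%, 73.9% and 34.1%, so the background moves with the number of peaks in a window. The persisting count was 2 when 50% of the oxLDL WT peak had to be covered, and 5 when summits had to lie within 200 bp. Persisting windows held 79 oxLDL KO and 109 oxLDL WT summits, intermediate windows 86 oxLDL KO and 182 oxLDL WT summits, and thinned windows 91 oxLDL KO and 321 oxLDL WT summits. With 8 to 16 peaks a window, counting error was wide. The interval lay above the list-wide share in 4 windows, at Dnmt3a, Fgd3, Arap1 and near Tomm20, and below it in 1, at Cd93 and Thbd. Among 63 intervals at 95%, a few can miss the share through counting error alone. No allowance was made for that number, so these windows are not shown to stand apart.

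**Figure D1:**
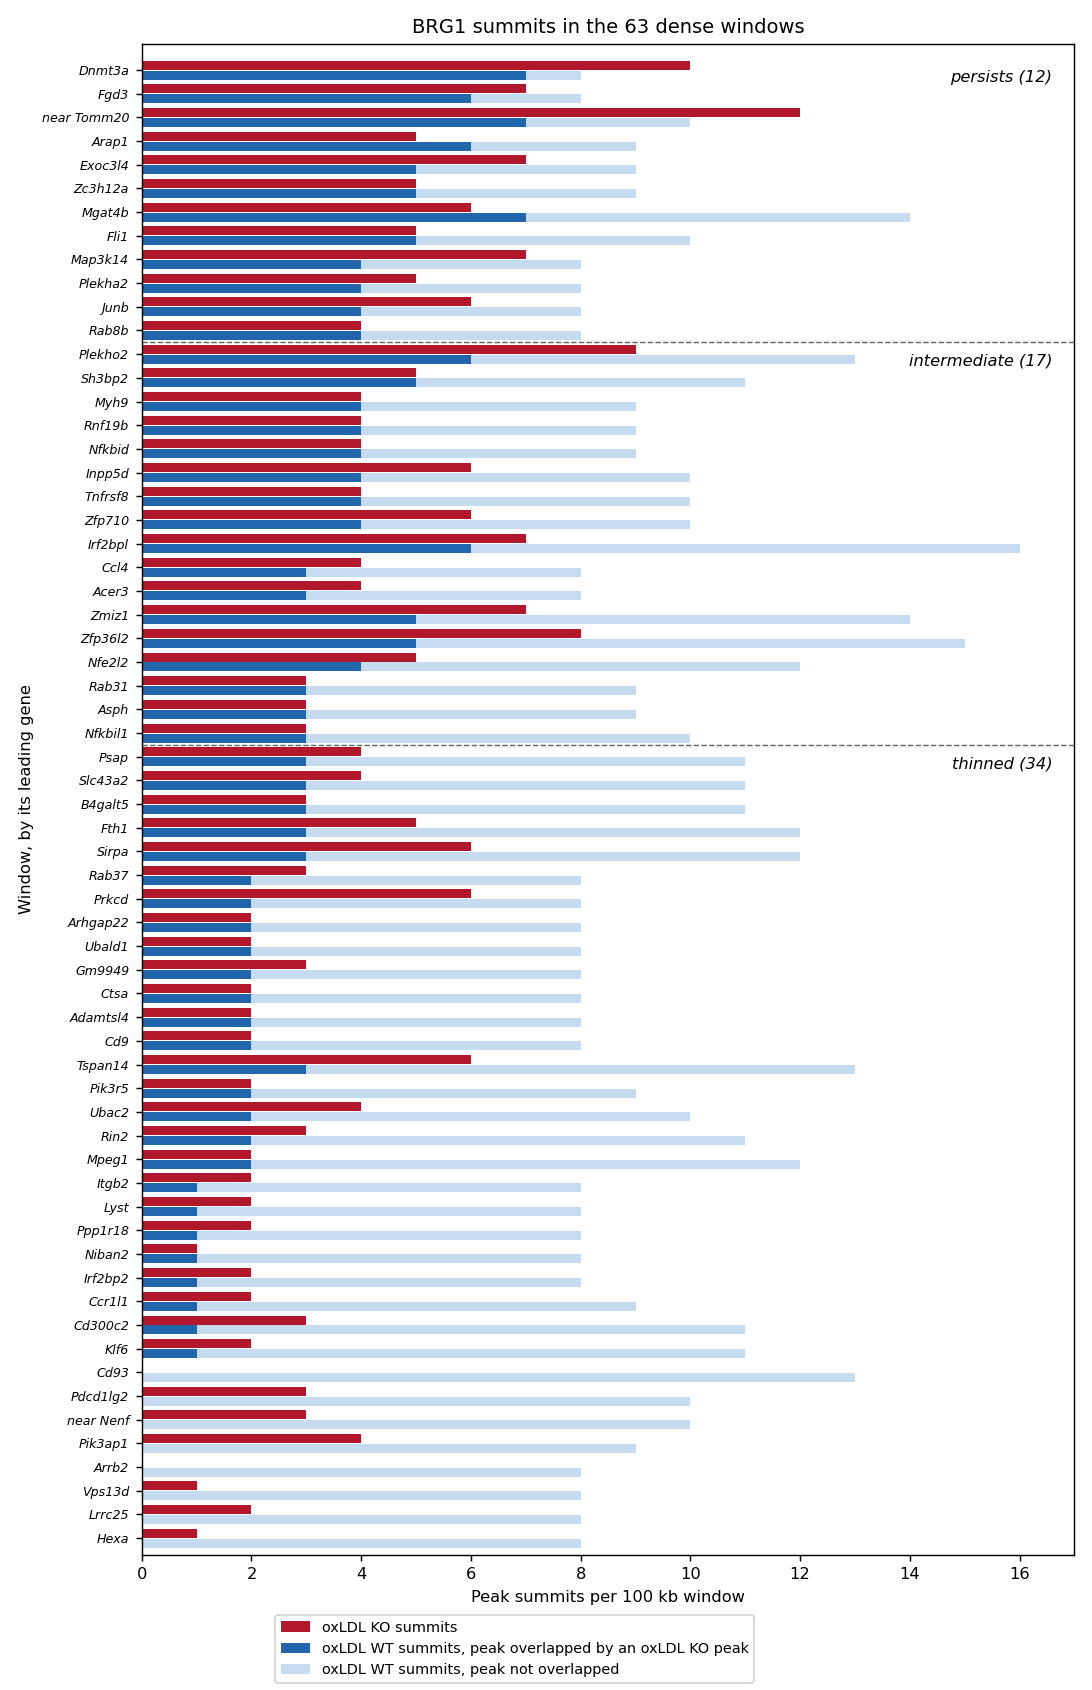
Peak summits (x axis, count per 100 kb window) in each of the 63 dense windows (y axis, named by their leading gene, or by the nearest gene where the window holds none), with oxLDL KO bars above oxLDL WT bars. Dark blue marks oxLDL WT summits whose peak is overlapped by an oxLDL KO peak, pale blue those not overlapped, and dashed lines separate the 12 persisting, 17 intermediate and 34 thinned windows; the oxLDL KO bar is shorter in 61 windows.

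Windows were grouped by hand, after their values had been seen, by the role of a gene that touches them. That gene need not be the one with the most oxLDL WT summits or the one nearest to a peak. Each group is therefore a description, to be read beside the 30.1% overlapped and the 54.0% thinned among all dense windows. The intervals printed for groups are no test of a role against that background, because the grouping could follow the values. Windows with transcription and chromatin regulators numbered 9, with 50 oxLDL KO and 97 oxLDL WT summits. Of these oxLDL WT peaks 38.1% (29.1 to 48.1) were overlapped, with 3 windows persisting, 4 intermediate and 2 thinned. Dnmt3a, which encodes a de novo DNA methyltransferase, lay in the window with the highest share. This window, at chr12:3800001-3900000, held 10 oxLDL KO summits, 8 oxLDL WT summits and none of either untreated list. All oxLDL summits lay inside the gene, and 7 of the 8 oxLDL WT peaks were overlapped (87.5%, interval 52.9 to 97.8). The highest fold enrichments were 5.66 in oxLDL KO cells, at 3856113, and 6.26 in oxLDL WT cells, at 3868449. Where at least 50% of the peak had to be covered, the count was 3 of 8 (37.5%).

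Junb encodes an AP-1 subunit induced by many stimuli, and its window at chr8:84900001-85000000 held peaks of all 4 lists. It had 6 oxLDL KO, 8 oxLDL WT, 1 KO and 1 WT summits, and 4 oxLDL WT peaks were overlapped. The summit at 84985591 had a fold enrichment of 7.69 in oxLDL KO cells, and the nearest oxLDL WT summit, at 84985662, had 7.09. The gene nearest to that pair was Hook2. The untreated summits, at 84981914 in KO (3.51) and 84982425 in WT (4.05), lay beside an oxLDL KO summit of 5.43 at 84982561 and an oxLDL WT summit of 7.14 at 84981979. Fli1 encodes an ETS factor of blood and vessel cells. Its window held 5 oxLDL KO and 10 oxLDL WT summits, all inside the gene, and 5 oxLDL WT peaks were overlapped.

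Irf2bpl encodes a transcriptional regulator of the IRF2-binding protein family, and the window at chr12:86800001-86900000 around it held the most oxLDL WT summits. It had 7 oxLDL KO and 16 oxLDL WT summits, of which 6 oxLDL WT peaks were overlapped (37.5%). Its highest fold enrichments were 4.53 in oxLDL KO cells, at 86882382, and 5.67 in oxLDL WT cells, at 86834355. Zmiz1, which encodes a PIAS-like coregulator, held all 7 oxLDL KO and 14 oxLDL WT summits of the window at chr14:25400001-25500000. The strongest summits of both lists nearly coincided, at 25472963 in oxLDL KO cells (6.44) and 25472891 in oxLDL WT cells (6.71), and 1 WT peak (4.86) lay at 25470624. The window of Nfe2l2 had 5 oxLDL KO and 12 oxLDL WT summits, 4 of them overlapped, most of them upstream of the gene. Klf6, a zinc-finger factor of the immediate early response, lay in a thinned window with 2 oxLDL KO and 11 oxLDL WT summits. The gene itself held 6 oxLDL WT summits and no oxLDL KO summit, and 1 of the 11 oxLDL WT peaks was overlapped. That pair was at 5888805 in oxLDL KO cells (6.34) and 5888792 in oxLDL WT cells (5.88), past the 3′ end of the gene. The window's strongest oxLDL WT summit, at 5804530 (6.93), met a WT peak (4.32) and no oxLDL KO peak.

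Both windows of mRNA decay regulators kept summits in oxLDL KO cells, 13 against 24 in oxLDL WT cells, and 41.7% (24.5 to 61.2) of the oxLDL WT peaks were overlapped. Zfp36l2 encodes a protein that binds AU-rich elements and shortens mRNA life. Its window at chr17:84100001-84200000 held 8 oxLDL KO, 15 oxLDL WT, 0 KO and 2 WT summits, and 5 oxLDL WT peaks were overlapped. The highest fold enrichments there were 5.88 in oxLDL KO cells, at 84116653, and 5.25 in oxLDL WT cells, at 84126557. Both WT peaks, at 84116765 and 84119036, had a fold enrichment of 4.05 and were overlapped in both oxLDL lists. Zc3h12a encodes Regnase-1, an RNase that degrades cytokine mRNAs. Its window at chr4:125100001-125200000 held 5 oxLDL KO and 9 oxLDL WT summits, and 5 oxLDL WT peaks were overlapped (55.6%), or 2 where summits had to lie within 200 bp. The strongest oxLDL WT summit, 6.51 at 125116425, was not overlapped.

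Windows with signalling enzymes and adaptors numbered 17, with 81 oxLDL KO and 155 oxLDL WT summits. The overlapped share was 38.7% (31.4 to 46.6), and 6 of these windows persisted, 5 were intermediate and 6 were thinned. Fgd3 encodes an exchange factor for Cdc42, and it shares its window at chr13:49200001-49300000 with Card19 and Susd3. That window held 7 oxLDL KO and 8 oxLDL WT summits, and 6 oxLDL WT peaks were overlapped (75%, 40.9 to 92.9). The strongest summits were 5.66 in oxLDL KO cells, at 49272802, and 5.67 in oxLDL WT cells, at 49272750, inside Fgd3. Arap1 encodes a GTPase-activating protein, beside Stard10, which encodes a lipid transfer protein. The window at chr7:101300001-101400000 held 5 oxLDL KO, 9 oxLDL WT and 1 KO summits, and 6 oxLDL WT peaks were overlapped (66.7%, 35.4 to 87.9), or 3 where at least 50% of the peak had to be covered. All 5 oxLDL KO summits lay in Arap1, and the strongest of both lists, 5.66 in oxLDL KO cells and 5.46 in oxLDL WT cells, overlapped the KO peak of 3.72 at 101360980.

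Tnfaip2, an NF-κB target gene, and Exoc3l4 lay in a window with 7 oxLDL KO and 9 oxLDL WT summits, 5 of the 9 overlapped. Map3k14, which encodes the kinase NIK of non-canonical NF-κB signalling, lay in a window with 7 oxLDL KO and 8 oxLDL WT summits, 4 of the 8 overlapped. Plekho2, which encodes a pleckstrin homology domain protein, had 9 oxLDL KO and 13 oxLDL WT summits in its window, and 6 oxLDL WT peaks were overlapped. The strongest pair of that window, 6.16 in oxLDL KO cells and 7.09 in oxLDL WT cells, had summits at 65542049 and 65542064, outside the gene. Inpp5d, which encodes the phosphatase SHIP-1, held all 6 oxLDL KO and 10 oxLDL WT summits of its window, with 4 oxLDL WT peaks overlapped. Sh3bp2 encodes an adaptor of immune receptor signalling. Its window held the strongest WT peak of any dense window, 5.68 at 34535785, which met the oxLDL KO and oxLDL WT peaks that share a summit at 34535333, of 5.88 in oxLDL KO cells and 6.51 in oxLDL WT cells. Rab31 encodes a small GTPase of vesicle transport, and its gene held the other oxLDL KO summit of 7.69, at 65730343, against 6.93 at 65730367 in oxLDL WT cells.

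Pik3ap1 and Pik3r5 were in thinned windows of the same group. Pik3ap1 encodes the adaptor BCAP, which links receptors to PI3-kinase, and held 4 oxLDL KO and 9 oxLDL WT summits in the window at chr19:41300001-41400000. None of the 9 oxLDL WT peaks was overlapped (interval up to 29.9%), although the gene held summits of both lists. The strongest were 4.15 in oxLDL KO cells, at 41384897, and 4.83 in oxLDL WT cells, at 41341970. Pik3r5, which encodes a regulatory subunit of PI3-kinase gamma, had 2 oxLDL KO and 9 oxLDL WT summits, and both oxLDL KO peaks were overlapped.

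Windows with surface receptors, receptor adaptors at the cell surface or adhesion molecules numbered 14, and none of these persisted. They held 44 oxLDL KO and 137 oxLDL WT summits, 12 windows were thinned and 2 were intermediate, and 18.2% of the oxLDL WT peaks were overlapped (12.7 to 25.6). As these windows were grouped after their values were seen, the low share is a description. In some of them the gene with the most oxLDL WT summits was no receptor, as with Rab37 beside Cd300lf and Ubac2 beside Gpr18. The window of Nfkbid was placed here by hand for Tyrobp and Hcst, which encode signalling adaptors of immune receptors and are not receptors themselves. Cd93, which encodes a C-type lectin-like receptor of myeloid and endothelial cells, and Thbd, which encodes thrombomodulin, lay in the window at chr2:148400001-148500000. It held 0 oxLDL KO, 13 oxLDL WT, 0 KO and 1 WT summits. None of the 13 oxLDL WT peaks was overlapped (interval up to 22.8%), and their fold enrichments were between 2.81 and 4.62. The WT peak, 4.75 at 148442073 inside Cd93, was overlapped by an oxLDL WT peak.

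Pdcd1lg2 encodes the checkpoint ligand PD-L2. The window at chr19:29400001-29500000 held 3 oxLDL KO and 10 oxLDL WT summits, and no oxLDL WT peak was overlapped (interval up to 27.8%). The strongest were 3.85 in oxLDL KO cells, at 29415130, and 5.42 in oxLDL WT cells, at 29430945. Sirpa encodes the receptor for the CD47 signal that restrains phagocytosis, and its window had 6 oxLDL KO and 12 oxLDL WT summits, 3 of the 12 overlapped. Tspan14, a tetraspanin gene, held all 6 oxLDL KO and 13 oxLDL WT summits of its window, with 3 overlapped. The Cd300 family of paired myeloid receptors filled 1 window, with 3 oxLDL KO and 11 oxLDL WT summits and 1 overlapped, and reached into another with Cd300lf and Rab37, with 3 oxLDL KO and 8 oxLDL WT summits and 2 overlapped. Itgb2, the common chain of the leukocyte integrins, held 2 oxLDL KO and 7 oxLDL WT summits, and its strongest oxLDL KO summit was 6.11 at 77537188. The window of Tyrobp, Hcst and Nfkbid was 1 of the 2 intermediate ones, with 4 oxLDL KO and 9 oxLDL WT summits and 4 overlapped. The window of Tnfrsf1b, which encodes TNF receptor 2, and Tnfrsf8 was the other, with 4 oxLDL KO and 10 oxLDL WT summits and 4 overlapped. Lrrc25, a leucine-rich repeat gene of myeloid cells, lay in a window that also held Jund, with 2 oxLDL KO and 8 oxLDL WT summits and none overlapped.

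The 3 windows with cytokine or chemokine genes held 7 oxLDL KO and 26 oxLDL WT summits, and 23.1% (11 to 42.1) of the oxLDL WT peaks were overlapped. Cxcl16 encodes a membrane chemokine that also acts as a scavenger receptor for oxidised lipoprotein, and it lay with Arrb2, which encodes beta-arrestin 2, and Med11, which encodes a Mediator subunit, at chr11:70400001-70500000. This window held 8 oxLDL WT summits, between 3.13 and 4.61, and no summit of the other 3 lists. The window of Tnf, Nfkbil1 and H2-D1 had 3 oxLDL KO and 10 oxLDL WT summits, 3 of the 10 overlapped. Within it, Tnf itself held 1 oxLDL WT summit of 3.36 and no oxLDL KO summit. Ccl3 and Ccl4, neighbouring chemokine genes, had 4 oxLDL KO and 8 oxLDL WT summits in their window, 3 of the 8 overlapped. The overlapped peaks with oxLDL WT summits at 83618183 and 83618922 had Ccl6 as their nearest gene. At Ccl4 the gene held 1 oxLDL KO and 3 oxLDL WT summits, and at Ccl3 it held 0 oxLDL KO and 2 oxLDL WT summits. The annotated genes overlap, and the 2 summits of Ccl3 were among the 3 of Ccl4.

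Windows with genes of lysosomes, autophagy, iron storage, and lipid and other enzymes numbered 11, with 33 oxLDL KO and 109 oxLDL WT summits. Of these, 1 persisted, 2 were intermediate and 8 were thinned, and 24.8% (17.6 to 33.6) of the oxLDL WT peaks were overlapped. The persisting window, at chr11:50200001-50300000, held Sqstm1, which encodes the autophagy receptor p62, Mgat4b, Ltc4s, which encodes leukotriene C4 synthase, and Maml1. It had 6 oxLDL KO and 14 oxLDL WT summits, and 7 oxLDL WT peaks were overlapped (50%). Fth1, which encodes the heavy chain of ferritin, had 5 oxLDL KO and 12 oxLDL WT summits in its window, 3 of the 12 overlapped. None of those summits lay within 1 kb of the gene's ends, and the strongest, 5.07 in oxLDL KO cells and 6.38 in oxLDL WT cells, had summits at 9914103 and 9914192. The gene nearest to that pair was Incenp. Mpeg1 codes for perforin-2, a pore-forming protein of macrophages, and had 2 oxLDL KO and 12 oxLDL WT summits in its window, 2 of the 12 overlapped. Psap, which encodes the precursor of saposins, had 4 oxLDL KO and 11 oxLDL WT summits in its window, 3 of the 11 overlapped, while the gene itself held 1 oxLDL KO and 4 oxLDL WT summits with no overlap. Hexa, which encodes the alpha chain of beta-hexosaminidase, had 1 oxLDL KO and 8 oxLDL WT summits in its window, and Vps13d with Dhrs3 had the same numbers. No oxLDL WT peak of either was overlapped. Acer3 encodes an alkaline ceramidase, and its window held 4 oxLDL KO, 8 oxLDL WT and 1 WT summits, with the strongest oxLDL pair at 4.75 in oxLDL KO cells and 7.56 in oxLDL WT cells.

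The remaining 7 windows had other or mixed genes, and they included the 2 windows without a protein-coding gene. One of these, at chr8:126800001-126900000 with Tomm20 as its nearest gene, held 12 oxLDL KO and 10 oxLDL WT summits and was 1 of the 2 windows with at least as many oxLDL KO as oxLDL WT summits, the other being Dnmt3a. Of its oxLDL WT peaks 7 were overlapped (70.0%, 39.7 to 89.2). It held the highest fold enrichment of any oxLDL WT peak in the dense windows, 9.38 at 126849866, and the matching oxLDL KO summit, at 126849910, had 5.43. The other gene-free window, at chr1:191200001-191300000 with Nenf nearest, held 3 oxLDL KO, 10 oxLDL WT and 1 KO summits, and no oxLDL WT peak was overlapped (interval up to 27.8%). The KO peak, 3.92 at 191250448, was met by an oxLDL KO peak with its summit at 191250444. A window's nearest or enclosed gene is a position and does not show which gene a peak acts on.

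**Figure D2:**
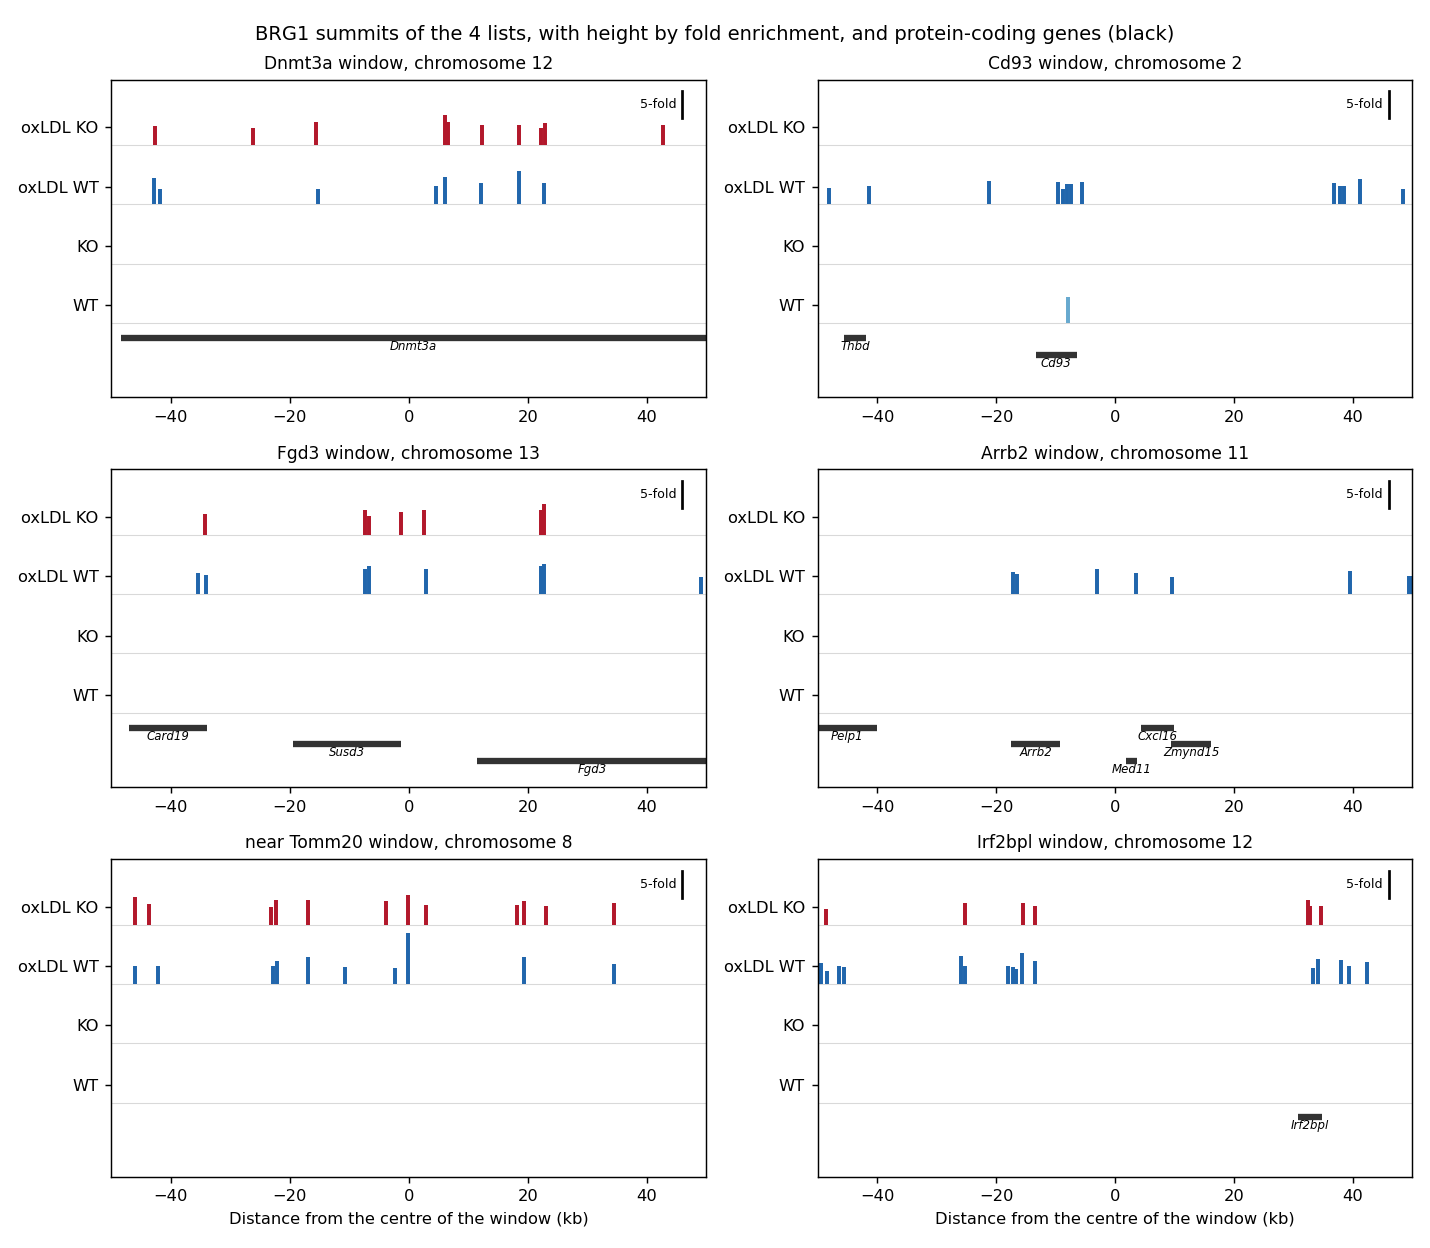
Summits of the oxLDL KO, oxLDL WT, KO and WT lists (rows, top to bottom) along 6 dense windows, by distance from the window's centre (x axis, kb), with line height giving fold enrichment on the scale of the 5-fold bar and black lines giving protein-coding genes. The windows of Dnmt3a, Fgd3 and near Tomm20 on the left have 10, 7 and 12 oxLDL KO summits, while those of Cd93 and of Arrb2 at upper right have none and that of Irf2bpl at lower right has 7.

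The 63 windows were touched by 173 protein-coding genes, which is 0.79% of the 21887 in the annotation, with 0 to 9 a window and a median of 2. An oxLDL KO summit lay in the body or within 1 kb of 79 of these genes, which is 0.361% of the 21887, and an oxLDL WT summit of 116, which is 0.53%. Both lists had a summit at 76 genes, the oxLDL KO list alone at 3 and the oxLDL WT list alone at 40. Anywhere in the genome, 13.1% of the 21887 had an oxLDL KO summit and 21.6% an oxLDL WT summit. Of 26 macrophage lineage genes, 14 had an oxLDL KO summit and 24 an oxLDL WT summit somewhere in the genome. Mpeg1 and Tyrobp lay in the dense windows, each with a summit of both oxLDL lists. They make up 7.69% of that list, where 0.79% of all genes touched a window. The gene lists were chosen with earlier results of these data known, and this share rests on 2 genes. The contrast, like the counts of the other lists, is therefore a description. The 0.79% also counts genes without a peak anywhere, of which the lineage list holds few. Of 30 inflammatory and NF-κB genes, 2 had an oxLDL KO summit in the windows (Ccl4 and Tnfaip2) and 4 had an oxLDL WT summit there (Ccl3, Ccl4, Tnf and Tnfaip2). Ccl3 and Ccl4 overlap in the annotation, and the oxLDL WT summits of Ccl3 were also counted for Ccl4. Of 26 AP-1 and immediate early genes, 2 had an oxLDL KO summit (Junb and Zfp36l2) and 4 an oxLDL WT summit (Ier3, Junb, Klf6 and Zfp36l2). Of 25 lysosome and autophagy genes, 3 had an oxLDL KO summit (Hexa, Psap and Sqstm1) and 4 an oxLDL WT summit (these and Ctsa). Inpp5d and Tyrobp were the 2 of 16 Fc receptor and ITAM genes, and Itgb2 the 1 of 24 actin and adhesion genes, with summits of both oxLDL lists in the windows.

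Of the 28 listed genes for lipid uptake, efflux and storage, 0 touched a dense window, where 0.79% of all genes did, so that a count of 0 is near the background. Elsewhere, 16 of the 28 had an oxLDL KO summit and 18 an oxLDL WT summit. Cxcl16 and Pltp, which encodes a phospholipid transfer protein, touched windows and are not on that list. None of 26 SWI/SNF subunit genes, Smarcd1 among them, lay in a window, and the lists hold no check that Smarcd1 was deleted. For markers of other cell types that a bone marrow culture could hold, a count of 0 is near the background too. No gene of the lymphocyte (18), neutrophil (15), stromal and endothelial (15) or neuron and hepatocyte (15) lists touched a window. Of 15 erythroid and megakaryocyte genes, Klf1 touched the Junb window, without a summit of any list. Elsewhere, oxLDL WT summits lay at 2 lymphocyte, 3 neutrophil, 2 erythroid and megakaryocyte, and 1 stromal and endothelial gene, and oxLDL KO summits at 1 lymphocyte and 1 erythroid and megakaryocyte gene.

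Summits in the dense windows lay away from gene ends more often than the rest of their lists. Of oxLDL KO summits, 16.4% (12.4 to 21.4) lay at a gene end in the windows, meaning within 1 kb of the start or end of any protein-coding gene, against 40.0% (38.6 to 41.5) outside and 38.7% of the list. Of oxLDL WT summits, 16.3% (13.6 to 19.5) did, against 33.3% (32.3 to 34.2) outside and 32.2% of the list. Summits inside genes made up 47.7% in the windows against 37.1% outside for oxLDL KO, and 46.4% against 41.5% for oxLDL WT. Summits outside genes made up 35.9% against 22.9% for oxLDL KO, and 37.3% against 25.3% for oxLDL WT. Of the sequence of the dense windows, 7.85% was within 1 kb of a gene end, against 6.39% in windows of 1 to 7 oxLDL WT summits. In windows of 4 to 7 such summits the gene-end share was 27.3% of oxLDL KO and 21.8% of oxLDL WT summits, between the dense windows and the rest. The share thus moved with the oxLDL WT summit count that picked the windows, so the contrast is a description. Within 1 kb of a transcription start the same order held, with 16% of oxLDL KO summits in the windows against 38.3% outside, and 12.9% of oxLDL WT summits against 31.3%. None of the 5 KO and 9 WT summits in the windows was at a gene end, against 21.6% of the KO list and 19.8% of the WT list. The intervals reach 43.4% for KO and 29.9% for WT, so these counts cannot be told apart from the list shares. Of the 9 WT summits, 1, in Acer3, lay within 1 kb of a transcription start.

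**Figure D3:**
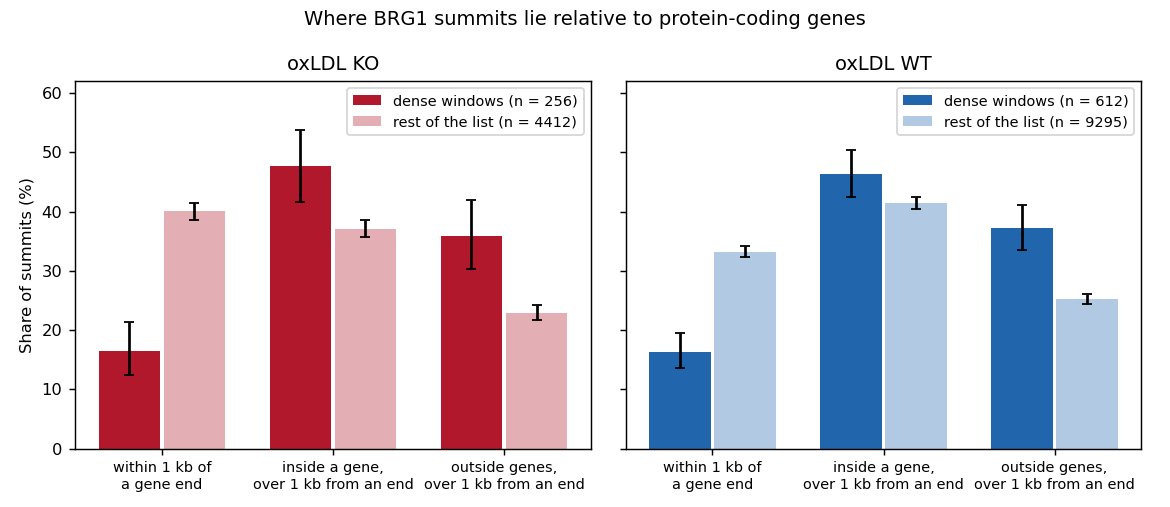
Share of summits (y axis, %) within 1 kb of a gene end, inside a gene and outside genes, for oxLDL KO (left) and oxLDL WT (right), in the dense windows (dark bars) and in the rest of the list (pale bars), with Wilson 95% intervals. The gene-end bars of the dense windows, 16.4% for oxLDL KO and 16.3% for oxLDL WT, are less tall than those of the rest, 40.0% and 33.3%.

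Peaks in the dense windows were close in strength to those elsewhere. Median fold enrichment was 3.85 for oxLDL KO peaks in the windows and also outside, and for oxLDL WT peaks it was 3.78 in the windows and 3.75 outside. The top quintile of the list by fold enrichment held 24.2% (19.4 to 29.8) of the oxLDL KO peaks in the windows against 19.8% of those outside, and 22.7% (19.6 to 26.2) of the oxLDL WT peaks against 19.8%. The most enriched peaks of both lists lay elsewhere, as the highest in the windows was 7.69 against 11.3 outside for oxLDL KO, and 9.38 against 17.6 outside for oxLDL WT. Median width was 335 bp in the windows and 307 bp outside for oxLDL KO, and 387 bp and 367 bp for oxLDL WT. No peak in the windows, of 256 in oxLDL KO and 612 in oxLDL WT, had a local background over 5 times the lowest of its list.

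Overlap followed fold enrichment in the windows as it did elsewhere. Among oxLDL WT peaks in the windows, the share overlapped by oxLDL KO peaks was 12.7% in the lowest quintile of the list by fold enrichment and 54.0% in the highest, against 16.3% and 46.9% outside. Taken at the rates of the same quintiles outside, 28.1% of the oxLDL WT peaks in the windows would be overlapped, beside the 30.1% counted. For oxLDL KO peaks the shares were 57.8% in the lowest quintile and 90.3% in the highest, against 43.2% and 80.3% outside, and the rates outside would give 60.3%, beside the 73.4% counted. The windows were picked for dense oxLDL WT peaks, which an oxLDL KO peak there meets more readily, so this gap is a description. In windows of 1 to 7 oxLDL WT summits 67.8% of oxLDL KO peaks were overlapped. Away from gene ends, 29.5% (25.7 to 33.6) of oxLDL WT peaks in the windows were overlapped, against 23.4% (22.3 to 24.4) outside. At gene ends the shares were 33.0% (24.6 to 42.7) in the windows and 34.6% outside. Persisting windows had 31.2% (23.3 to 40.4) of their oxLDL WT peaks in the top quintile of the list, and thinned windows had 18.1% (14.2 to 22.6), while median fold enrichment was 3.78 in both.

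**Figure D4:**
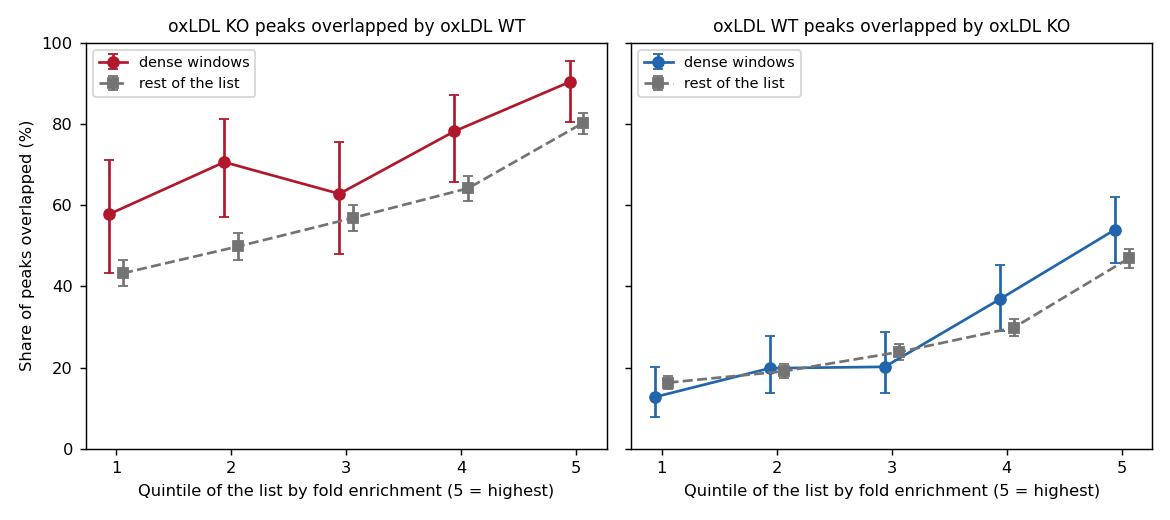
Share of peaks overlapped by the other oxLDL list (y axis, %) by quintile of the list in fold enrichment (x axis, 5 the highest), for oxLDL KO peaks (left) and oxLDL WT peaks (right), in the dense windows (colour) and in the rest of the list (grey), with Wilson 95% intervals. All 4 lines are highest in the top quintile, and the colour line reaches 90.3% for oxLDL KO peaks and 54.0% for oxLDL WT peaks.

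Where peaks of both lists met, the oxLDL KO peak was usually the narrower. Of the 184 overlapped oxLDL WT peaks in the windows, 137 (74.5%) were wider than the oxLDL KO peak they met, with median widths of 341 bp in oxLDL KO and 536 bp in oxLDL WT cells. Outside the windows the share was 74.7%, so the dense windows stood near the background in this. Summits of a pair were a median of 95 bp apart. The 68 oxLDL KO peaks of the windows without an oxLDL WT counterpart had an oxLDL WT summit within 2 kb in 40 cases (58.8%), against 30.1% of the 1818 such peaks outside. The rule puts many oxLDL WT summits in each window, so this share is a description. Of the 428 oxLDL WT peaks without an oxLDL KO counterpart, 131 (30.6%) were within 2 kb of an oxLDL KO summit, against 15.8% of the 6774 outside. These 428 had a median fold enrichment of 3.57 and a median pileup of 17 fragments, and the 184 overlapped ones had 4.20 and 20.

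The lists gave 1 rough measure of relative depth. The lowest local background was 3.42 fragments in oxLDL KO and 3.76 in oxLDL WT cells, a ratio of 0.909. The lowest pileup of a peak was 12 fragments in both. Whether the ratio follows library size alone was not tested, as fragment totals and lengths are unknown here. The narrowest peaks in the windows were 219 bp in oxLDL KO and 235 bp in oxLDL WT cells. The lowest background was 3.84 in the KO list of 139 peaks and 2.70 in the WT list of 237. Scaled by the ratio of 0.909, 34 of the 428 oxLDL WT peaks without a counterpart (7.94%) and 3 of the 184 with one (1.63%) would come below 12 fragments. This scaling leaves out counting spread and the local background and q limit of each peak. How many missing counterparts go with depth was therefore not tested. Differences in the share of fragments in peaks or in the immunoprecipitation between the 2 libraries cannot be told apart from the genotype.

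In untreated cells the dense windows held 5 KO and 9 WT peaks. Of the KO peaks, 4 were overlapped in oxLDL KO cells and 4 in oxLDL WT cells, against 69.8% and 71.9% of the whole KO list. Of the WT peaks, 7 were overlapped in oxLDL KO cells and all 9 in oxLDL WT cells, against 65% and 75.9% of the WT list. The 2 WT peaks with no oxLDL KO counterpart were those before Klf6 and inside Cd93. Fold enrichments of these untreated peaks ran between 3.51 and 4.34 in KO cells and between 4.05 and 5.68 in WT cells. The window of Junb was the only one of the 63 with a peak in both untreated lists.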

How the data were processed

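BRG1 ChIP-seq libraries of BMDMs were grouped by sample title, with 1 library per group. Per the labels' protocols, chromatin was cut with the enzyme of a ChIP kit and sequenced as paired ends. Tools named by the submitters' processing notes are MACS3, Bowtie2, Trimmomatic 0.33 and bcl2fastq 2.17, with mm10 as the build. The sources used here do not give tool settings or say whether the input served as control. The authors deposited, for each peak, a score, which equals 10 times −log10 q with the decimals dropped. The authors' fold enrichment is a ratio at the summit, the −log10 p and −log10 q were used as deposited, and the deposited summit offset in bp gave each summit position. Peaks were called per library and not pooled, and every deposited list ends near a −log10 q of 1, so list length moves with depth and enrichment.

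The members and gene lists were chosen with earlier results of these data known, and the window roles and printed promoters after their values were seen. Pileup and background were solved from fold enrichment, with a pseudocount of 1, and the Poisson p, which gave whole pileups, within 2% of a step, for 99.96% of oxLDL KO and 99.99% of oxLDL WT peaks; the code was tested on simulated data. A peak belonged to the window of its summit, and overlap meant at least 1 bp. Gene positions came from RefSeq on GRCm38.p6 without strand, so a gene end is either end, and transcription starts came from the promoter table, which gives strand. Shares have Wilson 95% intervals. Named windows were the 10 with the most oxLDL WT summits, the 6 with the highest and the 6 with the lowest overlapped share, and those holding an untreated peak, with up to 3 genes each and the strongest peak of each list; list genes in any window were named too, and other windows were named after their values were seen. Alternatives changed the overlap rule, the peak threshold, high-background peaks, window position and size, the summit minimum, the gene-end distance and the list that picks the windows. Sequence under peaks away from promoters was not used here. Python 3.11.15, numpy 2.4.6, pandas 2.3.3, scipy 1.17.1 and matplotlib 3.10.9 were used.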

Additional observations from a re-analysis of the deposited data

How the results depend on the processing

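Of 57 alternatives to the main results, 36 moved a value by less than its interval or a count by less than 1.5 times. The overlapped share of oxLDL WT peaks in the dense windows, 30.1%, was 18.5% where at least 50% of the peak had to be covered, 21.4% where summits had to lie within 200 bp, 19.8% with both lists kept at a −log10 q of at least 5, and 49.9% in windows with 5 or more oxLDL KO summits. The share over the whole oxLDL WT list moved with the first 3 of these, to 17.8%, 20.04% and 18.3%. The ratio of oxLDL KO to oxLDL WT summits, 0.418, was 0.297 at a −log10 q of at least 5 and 0.839 in windows picked on oxLDL KO summits, which also gave a top-quintile share of 32.4% in place of 22.7%. The gene-end share of oxLDL WT summits, 16.3%, was 20.3% with windows moved by 50 kb, 20.9% with 200 kb windows, 11.2% with 10 or more summits, 10.9% within 500 bp of a gene end and 26.0% within 2 kb. Persisting windows, 12 of 63, numbered 2 with 50% coverage, 5 with summits within 200 bp, 6 of 21 with 50 kb windows, 23 of 178 with 200 kb windows and 3 of 27 with 10 or more summits. Thinned windows, 34 of 63, numbered 10 of 21 with 50 kb windows, 98 of 178 with 200 kb windows, 67 of 125 with 7 or more summits and 14 of 27 with 10 or more. The cause of these shifts was not tested, other than that a stricter rule counts fewer peaks and another window rule counts other windows. For the 28 named windows, 12 of 56 alternatives moved the overlapped share. Against the list-wide share, 3 windows crossed with summits within 200 bp, those of Zfp36l2 (33.3%, then 13.3%) and Irf2bpl (37.5%, then 18.75%) to below it, and 2 crossed with 50% coverage, that of Acer3 (37.5%, then 0%) to below it. The other, 1 window at 25% under each rule, came to lie above it in both.

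No paired analysis was possible because each group has 1 library and no result comes from a test, and for the same reason no replicate could be left out. A window's share rests on 8 to 16 oxLDL WT peaks, so most windows could not be told apart from the list-wide share. The few whose interval missed that share were found among 63, with no allowance for that number. A peak needed a pileup of at least 12 fragments in both oxLDL lists, and weaker binding was not detectable.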

Other observations

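The dense windows held 7 microRNA genes of the RefSeq table, and 1 of them, Mir7036b in the window of Sh3bp2 and Add1, had a peak within 1 kb. That peak was in the oxLDL WT list, and neither the oxLDL KO list nor the untreated lists had one there.

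Mcl1, which encodes an anti-apoptotic protein of the BCL-2 family, shared its window with Adamtsl4, and that window held the third-highest oxLDL KO summit of the dense windows, 6.79 at 95674078. The window had 2 oxLDL KO and 8 oxLDL WT summits, and both oxLDL KO peaks met oxLDL WT peaks. The strongest oxLDL WT summit after that near Tomm20 was in the window of Acer3, at 98334453. It had a counterpart of 4.75 in oxLDL KO cells, against 7.56 in oxLDL WT cells. These windows and genes were picked after their values were seen.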
